A study of Mus musculus with 6 samples.

Results

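The 10 genes described here are direct transcriptional targets of SMAD proteins, found by symbol in a table of 39234 genes. They are the 4 genes of the ID family (ID1, ID2, ID3 and ID4), the inhibitory SMADs SMAD6 and SMAD7, the transcription factor genes HEY1 and ATOH8, and SKIL and SMURF1, which encode a corepressor and a ubiquitin ligase. Their RNA was measured in HK-2, an immortalized line from human proximal tubule, in 3 control cultures and in 3 cultures labelled as overexpressing USAG-1. All 6 carry the genotype label WT. In this study, overexpression in cells was by transient transfection of plasmids, and whether the control cultures of this experiment received the empty vector, or how long after transfection cells were harvested, is not given in the sources used here. Although mouse is given as the organism in the labels, HK-2 and the Ensembl identifiers are human. Nothing in the labels says that the cultures were grown separately, so p-values measure the spread between these libraries, which may be technical.

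Bone morphogenetic proteins (BMPs) and TGF-β are secreted ligands that bind pairs of type I and type II receptor kinases. BMP receptors mainly phosphorylate SMAD1, SMAD5 and SMAD9, and TGF-β and activin receptors SMAD2 and SMAD3. Both sets enter the nucleus with SMAD4 and switch on target genes, among them inhibitors of the same pathway. USAG-1, a secreted protein encoded by SOSTDC1, binds BMPs such as BMP7 and keeps them from their receptors, and BMP target genes are where an effect on that signal would be read. In kidney tubules, BMP7 is known for supporting epithelial repair, and TGF-β for driving fibrosis.

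The libraries held 41236194 to 48699471 counted reads, and levels are given in CPM (counts of a gene per 1000000 counts of its library, scaled by edgeR's TMM method). SOSTDC1 rose from 1.64 ± 0.243 to 101 ± 10.6 CPM (SD, n = 3 each). Control replicate 3 stood apart, since its counts differed from those of the other controls by a chi-square per degree of freedom of 47.0 and 48.1, compared with 6.79 between those controls. Of 14 epithelial and proximal tubule markers, KRT8, KRT18, KRT19, PAX8, EPCAM and GGT1 averaged at least 32.4 CPM in control cells, whereas LRP2, the endocytic receptor megalin, had no count and CUBN and AQP1 averaged 0.207 CPM or less in either group. Of 12 markers of T and NK cells, 12 were lower in USAG-1-overexpressing cells, with a summed level of 83.3 to 102 CPM in control libraries and 9.22 to 11.7 CPM in the others. Mitochondrially encoded genes took 4.80 to 5.59% of control counts and 1.50 to 1.55% of the others. Among 7 endothelial markers CDH5, VWF and CLDN5 averaged 0.146 CPM or less in each group, and KDR and EMCN had no entry under those symbols. The other two were tested and not called. PECAM1 held 2.93 to 5.49 CPM in control libraries and 1.33 to 4.11 CPM in the others, and TEK 0.182 to 0.263 and 0.183 to 0.718 CPM. LYZ was the one gene called (lower) among markers of B, myeloid and erythroid cells, and LUM the one called (higher) among those of fibroblasts. Some markers without a call were read and varied widely within each group. HBB held 3.14 to 70.4 CPM in control libraries and 2.06 to 51.5 CPM in the others. S100A9 held 9.72 to 47.9 and 8.07 to 33.1 CPM. In bulk RNA, fewer cells of a type and less RNA per cell cannot be told apart.

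ID1, ID2 and ID3 rose in USAG-1-overexpressing cells, by 1.45-, 1.41- and 1.31-fold. The other 6 genes that could be tested, SMAD6, SMAD7, HEY1, ATOH8, SKIL and SMURF1, did not pass the threshold. ID4 had too few reads for a test. Thus 3 of the 9 genes tested were called, all of them higher, where 15.9% of all 18188 genes tested were called and 8.95% were called as higher. The fitted log2 fold change was above 0 in 9 of 9 genes and in 47.5% of all genes tested. Every USAG-1-overexpressing library lay above every control library for 5 of the 9 genes and for 19.4% of all genes tested. Over the fitted values, the median was 0.15 for the 9 genes (0.30 without control replicate 1) and -0.02 for all genes tested. The count of 3 became 2, ID1 and ID2, without control replicate 1 or 2 or any 1 of the USAG-1-overexpressing libraries, and 4, with SMURF1, without control replicate 3.

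**Figure D1:**
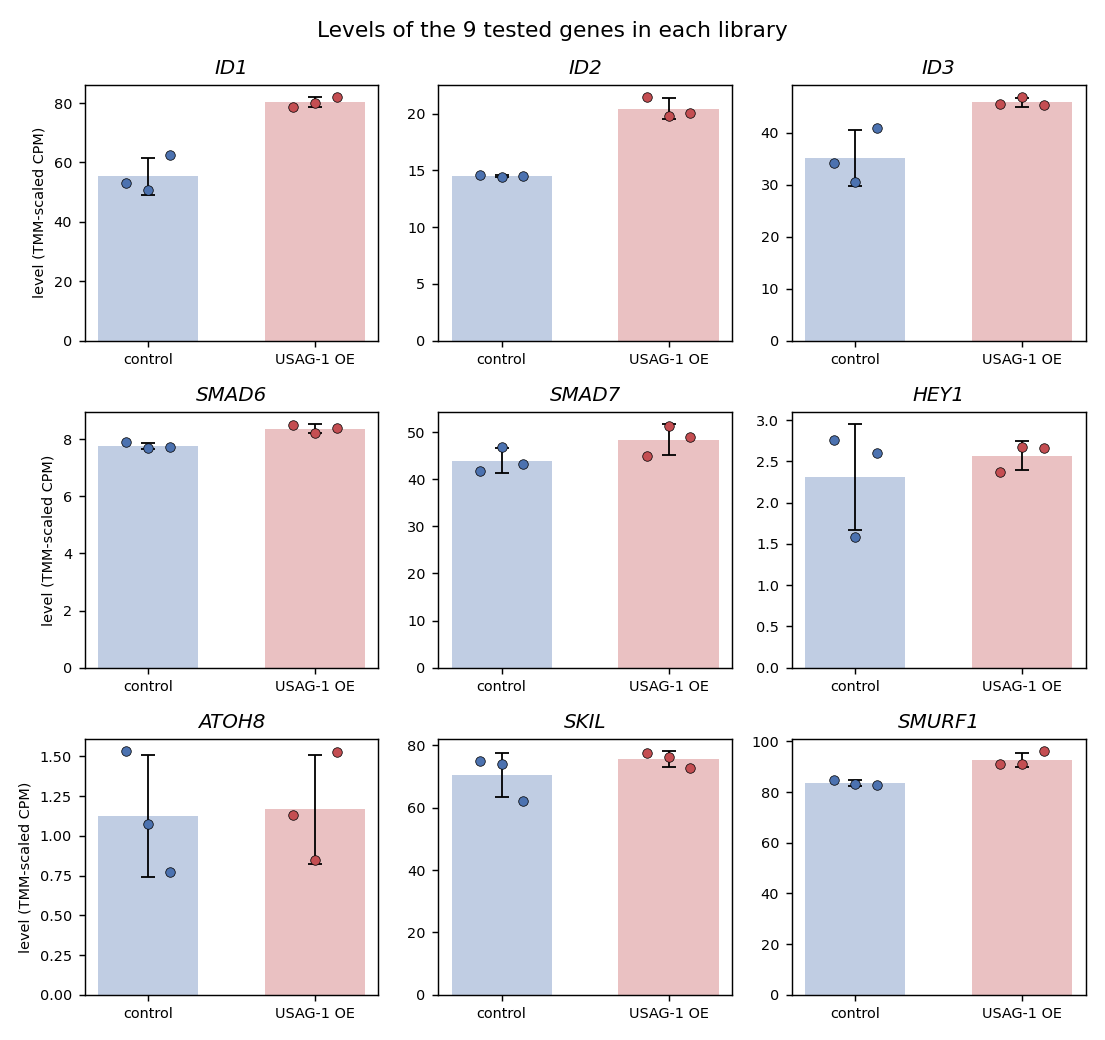
Level of each tested gene in TMM-scaled CPM, with bars for the group mean, error bars for 1 SD and a point for each library (left to right, replicates 1 to 3; OE, overexpression). In ID1, ID2 and ID3 every point of the USAG-1-overexpressing group lies above every control point. The scale differs between panels.

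ID proteins are helix-loop-helix proteins without a DNA-binding region. They pair with E proteins and keep them from DNA, which delays differentiation, and ID1, ID2 and ID3 are among the most direct readouts of BMP receptor activity in many cells. T and NK cells also express ID2 and ID3, and the fall of T and NK cell markers given above ran with the group. Its part in the following values was not tested.

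ID1 (ENSG00000125968) lies on the plus strand of chromosome 20, from 31605283 to 31606515, and no other gene in the table overlaps it (positions are as deposited; the processing notes name hg38). Control libraries had 2211, 2506 and 2661 counts of ID1, and USAG-1-overexpressing libraries had 3611, 3502 and 3542. On the CPM scale these were 52.9, 50.7 and 62.4 in control cells against 78.6, 80.1 and 82.0. The overexpressing libraries lay close together and above every control, and the control nearest to them was replicate 3. The mean level was 55.3 ± 6.17 CPM in control cells and 80.2 ± 1.72 CPM in USAG-1-overexpressing cells (SD, n = 3 each). The log2 fold change of ID1 was 0.54 ± 0.08 (SE, adjusted p = 0.00497, quasi-likelihood test of edgeR, Benjamini-Hochberg adjusted), which is above that of 93.5% of all genes tested. Without control replicate 3 it was 0.64 (adjusted p = 3.98e-05), and ID1 passed the threshold in 14 of the 14 alternatives that set no minimum fold change. With a log2 fold change of at least 1 required, none of the 10 genes would be called.

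ID2 (ENSG00000115738) is on the plus strand of chromosome 2, from 8678845 to 8684453. It had 608, 711 and 618 counts in control libraries and 986, 863 and 868 counts in the others. Its levels of 14.6, 14.4 and 14.5 CPM in control cells were the most even of the family, with control replicate 3 between the other controls. Those of USAG-1-overexpressing cells were 21.5, 19.7 and 20.1 CPM. Thus ID2 did not overlap between groups, and its mean went from 14.5 ± 0.0777 to 20.4 ± 0.903 CPM (SD, n = 3 each). For ID2 the log2 fold change was 0.50 ± 0.08 (SE, adjusted p = 0.00554, quasi-likelihood test of edgeR, Benjamini-Hochberg adjusted). It passed the threshold in 14 of the same 14 alternatives, with values from 0.46 to 0.52. The antisense transcript ID2-AS1 overlaps ID2 by 318 bases and had 243 counts over all libraries, compared with 4654 for ID2. The log2 fold change of ID2-AS1 was 0.81 (adjusted p = 0.219). The libraries mark strand, but whether the counting used it is not stated, so these reads may be shared.

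ID3 (ENSG00000117318) is on the minus strand of chromosome 1, from 23557926 to 23559501, and overlaps no other gene in the table. It had 1427, 1504 and 1746 counts in control libraries and 2093, 2050 and 1958 in the others. The control levels of 34.2, 30.5 and 40.9 CPM were more spread than the 45.5, 46.9 and 45.3 CPM of USAG-1-overexpressing cells. As for ID1, control replicate 3 was the highest control, and it still lay below every overexpressing library. The mean changed from 35.2 ± 5.30 to 45.9 ± 0.854 CPM (SD, n = 3 each). With a log2 fold change of 0.39 ± 0.10 (SE, adjusted p = 0.0404, quasi-likelihood test of edgeR, Benjamini-Hochberg adjusted), ID3 was the call closest to the threshold. It lost significance without control replicate 1 (0.37, adjusted p = 0.108) or 2 (0.29, adjusted p = 0.106). The same held without USAG-1 overexpression replicate 1 (0.39, adjusted p = 0.119), 2 (0.37, adjusted p = 0.145) or 3 (0.40, adjusted p = 0.114). Without the filter on low counts the adjusted p was 0.0773. Without control replicate 3 the log2 fold change was 0.52 (adjusted p = 4.59e-04).

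ID4 (ENSG00000172201; chromosome 6, 19837370 to 19842197, plus strand) was hardly read. It had 2, 5 and 0 counts in control libraries and 4, 0 and 0 counts in the others. In 4 of these libraries the count was at or below 3, which corresponds to 0.0607 to 0.0718 CPM. A difference in ID4 was not detectable at this depth, and LNC-LBCS, a non-coding gene that overlaps it on the other strand, had no count.

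The ID1 to ID2 ratio of counts within a library does not depend on scaling between libraries. It was 3.64, 3.52 and 4.31 in control libraries and 3.66, 4.06 and 4.08 in USAG-1-overexpressing libraries. These ranges overlapped, and the difference of the log2 ratio was 0.05 (standard error 0.10). An exact two-sided permutation test gave p = 0.8, where the smallest p that 3 libraries against 3 allow is 0.1. Thus a difference between the responses of ID1 and ID2 was not detected, and its size is bounded only by that standard error. The sign of this difference turned without control replicate 2 (-0.01), and the difference was 0.13 without control replicate 3. With any other library left out it lay between 0.01 and 0.10.

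**Figure D2:**
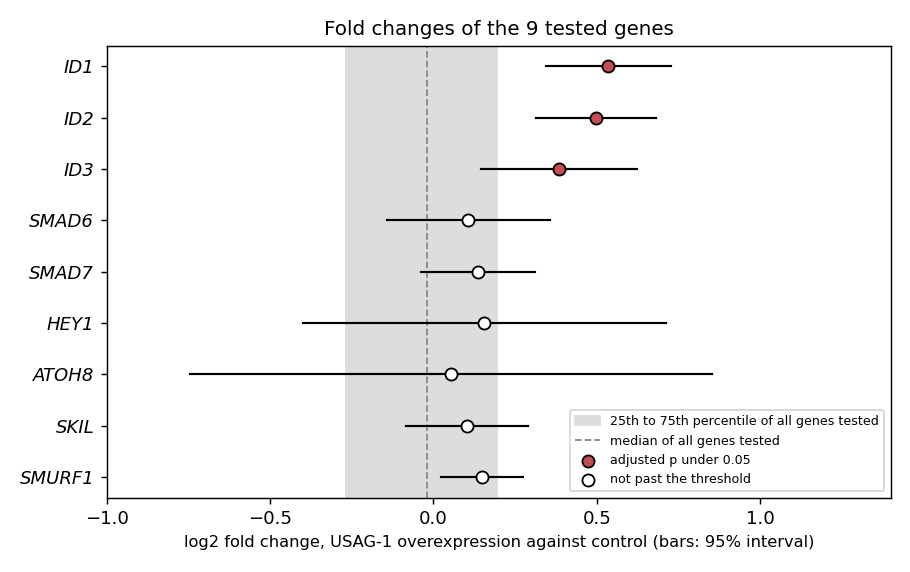
Log2 fold change of each tested gene with its 95% interval; filled points passed an adjusted p of 0.05 and the grey band holds the central part of all genes tested (25th to 75th percentile, -0.27 to 0.19). ID1, ID2 and ID3 lie to the right of the band and the other 6 points within it.

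SMAD6 and SMAD7 lack the tail that receptors phosphorylate. They occupy activated receptors or draw ubiquitin ligases to them, and both are induced by the signals that they dampen. SMAD6 acts mainly on BMP signalling, whereas SMAD7 acts on both branches.

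SMAD6 (ENSG00000137834; chromosome 15, 66702236 to 66782849, plus strand) had 330, 380 and 330 counts in control libraries and 391, 359 and 363 in the others. In CPM these were 7.90, 7.69 and 7.73 against 8.51, 8.21 and 8.40. The libraries of the groups did not overlap, as was true of 37.6% of all genes tested, and the gap was narrow. For SMAD6 the log2 fold change was 0.11 with a 95% interval of -0.14 to 0.36 (adjusted p = 0.56, quasi-likelihood test of edgeR, Benjamini-Hochberg adjusted).

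SMAD7 (ENSG00000101665; chromosome 18, 48919853 to 48950965, minus strand) had 1744, 2313 and 1847 counts in control libraries and 2060, 2242 and 2115 in the others. The levels were 41.7, 46.8 and 43.3 CPM in control cells and 44.8, 51.3 and 49.0 CPM in USAG-1-overexpressing cells. Control replicate 2 lay above USAG-1 overexpression replicate 1, so the groups overlapped. SMAD7 had a log2 fold change of 0.14 with a 95% interval of -0.04 to 0.31 (adjusted p = 0.268, quasi-likelihood test of edgeR, Benjamini-Hochberg adjusted). That interval ends below the fitted value of ID1 or ID2. The ratio of SMAD7 to SMAD6 counts averaged 5.66 ± 0.404 in control libraries and 5.78 ± 0.490 in the others (SD, n = 3 each; exact two-sided permutation test p = 0.8). The small difference of its log2 (0.03) turned negative without control replicate 1 (-0.02) or USAG-1 overexpression replicate 2 (-0.03).

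Ratios between the families were chosen after their values were seen and are therefore given without a test. Free of any scaling, they set ID1 and ID2 beside the inhibitory SMADs and ID3 beside the corepressor gene SKIL. The ID1 to SMAD7 ratio was 1.27, 1.08 and 1.44 in control libraries and 1.75, 1.56 and 1.67 in the others. For ID2 and SMAD6 the ratio was 1.84, 1.87 and 1.87 in control libraries and 2.52, 2.40 and 2.39 in the others. In these 2 ratios each USAG-1-overexpressing library lay above each control library, with the nearer gap in the ID1 to SMAD7 ratio at control replicate 3. For ID3 and SKIL the ratio was 0.456, 0.412 and 0.658 in control libraries and 0.587, 0.617 and 0.623 in the others. Here the groups overlapped, since control replicate 3 lay above every USAG-1-overexpressing library.

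HEY1 and ATOH8 encode transcription factors of the basic helix-loop-helix class that BMPs induce, above all in endothelial cells, and HEY1 is also a target of Notch receptors. Both were read at low levels in these epithelial cells. HEY1 (ENSG00000164683; chromosome 8, 79762371 to 79767857, minus strand) had 115, 78 and 111 counts in control libraries and 109, 117 and 115 in the others. Control replicate 2, at 1.58 CPM, lay apart from the other libraries, which held 2.37 to 2.75 CPM. The log2 fold change of HEY1 was 0.16 with a 95% interval of -0.40 to 0.71 (adjusted p = 0.716, quasi-likelihood test of edgeR, Benjamini-Hochberg adjusted). It was -0.06 without that library, 0.30 without control replicate 1 and 0.26 without control replicate 3.

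ATOH8 (ENSG00000168874; chromosome 2, 85751344 to 85791383, plus strand) had 64, 53 and 33 counts in control libraries and 52, 37 and 66 in the others. The groups covered almost the same range, 0.773 to 1.53 CPM in control cells and 0.847 to 1.53 CPM in USAG-1-overexpressing cells. ATOH8 had a log2 fold change of 0.05 with a 95% interval of -0.74 to 0.85 (adjusted p = 0.937, quasi-likelihood test of edgeR, Benjamini-Hochberg adjusted). The sign turned without control replicate 3 (-0.15) or USAG-1 overexpression replicate 3 (-0.18). For HEY1 and ATOH8 a change of the size seen in ID1 lies within the interval, so one of that size could not be told from none.

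SKIL encodes SnoN, a corepressor that holds SMAD complexes silent, is degraded when TGF-β or activin signals, and is then induced as feedback. SMURF1 encodes a ubiquitin ligase that marks BMP-regulated SMADs and, together with SMAD7, receptors for degradation. SKIL (ENSG00000136603; chromosome 3, 170357678 to 170396835, plus strand) had 3130, 3647 and 2655 counts in control libraries and 3567, 3325 and 3141 in the others. The levels of 74.9 and 73.9 CPM in control replicates 1 and 2 lay among those of the USAG-1-overexpressing libraries (77.6, 76.1 and 72.7 CPM). Control replicate 3 was lower at 62.2 CPM, the opposite of its place in ID1 and ID3. The log2 fold change of SKIL was 0.10 with a 95% interval of -0.09 to 0.29 (adjusted p = 0.449, quasi-likelihood test of edgeR, Benjamini-Hochberg adjusted), and it was 0.03 without control replicate 3. Counts of SKIL per count of its paralog SKI averaged 0.723 ± 0.0970 in control libraries and 0.740 ± 0.0258 in the others (SD, n = 3 each; exact two-sided permutation test p = 1). The log2 difference of that ratio, 0.04, was -0.07 without control replicate 3.

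SMURF1 (ENSG00000198742; chromosome 7, 99027440 to 99144108, minus strand) had 3543, 4112 and 3530 counts in control libraries and 4188, 3979 and 4146 in the others. Control libraries held 84.8, 83.3 and 82.7 CPM, and USAG-1-overexpressing libraries held 91.1, 91.1 and 96.0 CPM, without overlap. In SMURF1 the log2 fold change was 0.15 with a 95% interval of 0.02 to 0.28 (adjusted p = 0.107, quasi-likelihood test of edgeR, Benjamini-Hochberg adjusted). It passed the threshold without control replicate 3 (0.15, adjusted p = 0.0395). SMURF1 shares 20801 bases with TRRAP on the other strand, a gene with 55439 counts over all libraries compared with 23498 for SMURF1. TRRAP had a log2 fold change of 0.13 (adjusted p = 0.191), and reads may be shared between them. The ratio of SMURF1 to its paralog SMURF2 was 2.71, 2.82 and 3.04 in control libraries and 2.46, 2.53 and 2.93 in the others, and these ranges overlapped at USAG-1 overexpression replicate 3 (exact two-sided permutation test p = 0.3, n = 3 each). The log2 difference of that ratio was -0.12. Leaving out the library that overlapped gave -0.20, whereas leaving out control replicate 3 or USAG-1 overexpression replicate 1 gave -0.07.

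**Figure D3:**
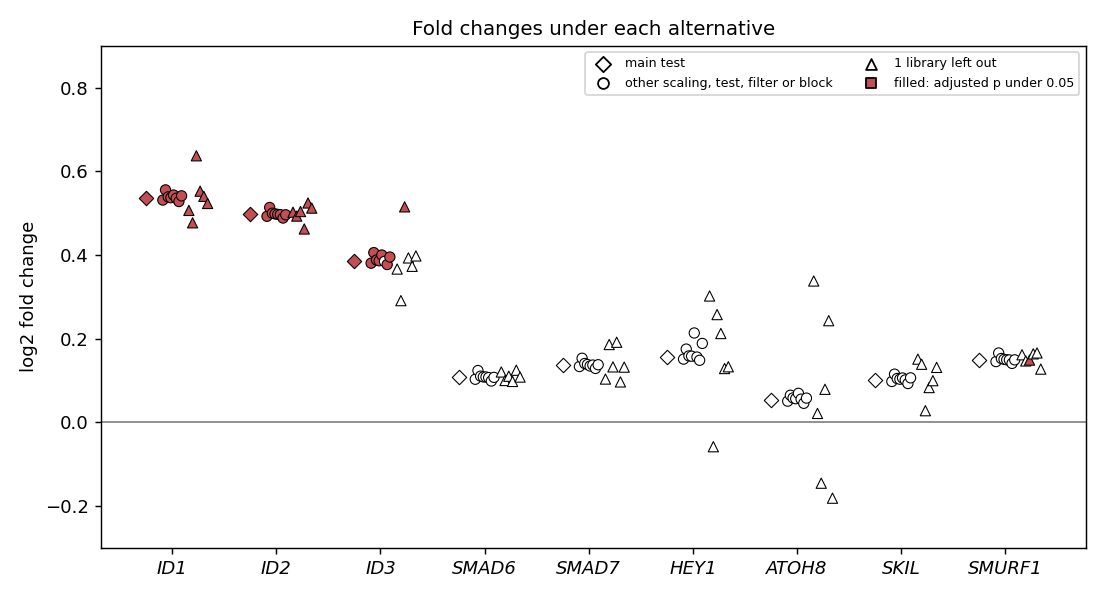
Log2 fold change of each tested gene in the main test (diamond), under 8 other scalings, tests, filters or a replicate block (circles) and with 1 library left out (triangles); filled symbols passed an adjusted p of 0.05. ID1 and ID2 are filled throughout, ID3 loses its call in 6 of 14 alternatives, and HEY1 and ATOH8 cross 0.

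The table gives no transcript lengths, so levels were not ranked between genes. Over the 6 libraries, likeness of pattern was measured as the root mean square difference of log2 CPM after centring each gene on its own mean, among 11099 genes with at least 5 CPM on average. Nearest to ID1 were GSR, glutathione reductase (0.0245), SERINC2 (0.0310) and CHIC2 (0.0320). These 3 genes had log2 fold changes of 0.53, 0.58 and 0.57 with adjusted p of 0.00384, 0.00678 and 0.0215 (quasi-likelihood test of edgeR, Benjamini-Hochberg adjusted), and CHIC2 lost its call when control replicate 1 or 2 or any 1 of the USAG-1-overexpressing libraries was left out. The same distance was 0.0869 from ID1 to ID3 and 0.106 from ID1 to ID2. Since GSR, SERINC2 and CHIC2 were picked for their small distance, the gap to ID2 and ID3 is a description only. The fold changes and calls of these 3 genes largely follow from that choice and add nothing to those of ID1. Nearest to SMAD7 were ANKRD6 (0.0247), ITGB1P1 (0.0250), a pseudogene that may share reads with its parent gene, and TRIB1 (0.0296). None of these was called, which largely follows from picking them for their likeness to SMAD7. Among the members themselves, SMAD6 and SMURF1 had the smallest distance (0.0345).

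Other genes of the pathway were taken from lists typed from general knowledge, which hold 80 genes, 68 of them tested. Of these, 18 were called higher and 11 lower, where 8.95% of all genes tested were called as higher and 15.9% in either direction. The E proteins that ID proteins bind are encoded by TCF3, TCF4 and TCF12, and 0 of the 3 were called. Their log2 fold changes were 0.14, 0.06 and 0.13, and TCF3 passed the threshold without control replicate 3 (0.18). The signal-transducing SMADs SMAD1 to SMAD5 ranged from -0.08 to 0.02 on the log2 scale, with SMAD3 at -0.07 (95% interval -0.21 to 0.06). SMAD9, itself a target of BMP signalling, was the exception and went from 1.16 ± 0.262 to 2.38 ± 0.275 CPM (SD, n = 3 each). This was a log2 fold change of 1.03 (adjusted p = 0.0246, quasi-likelihood test of edgeR, Benjamini-Hochberg adjusted). The SMAD9 call rests on few reads and was lost without the filter on low counts, when control replicate 2 (0.97) or USAG-1 overexpression replicate 1 (0.98), 2 (1.12) or 3 (0.99) was left out.

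Among 8 tested genes for ligands, 3 were called higher and 3 lower, and 3 were called in all without control replicate 2 or without USAG-1 overexpression replicate 2 or 3. TGFB2 changed from 140 ± 1.01 to 220 ± 10.3 CPM and INHBA, which encodes a chain of activin, from 85.7 ± 9.92 to 52.1 ± 1.89 CPM (SD, n = 3 each). BMP7 had 0 counts in each library, which allows a level of up to 0.0607 to 0.0718 CPM and covers counting error only. BMP4, with a log2 fold change of 0.93 (adjusted p = 0.00817, quasi-likelihood test of edgeR, Benjamini-Hochberg adjusted), is named with BMP7 after its values were seen. Among 14 genes for receptors and co-receptors, 4 were called higher and 1 lower. That count of 5 was 3 without control replicate 1 or 2 or USAG-1 overexpression replicate 1 or 2, and 8 without control replicate 3. ACVR1B, a type I receptor of activin, rose by 0.49 and ENG, a co-receptor known from endothelial cells, by 0.50 on the log2 scale.

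Of 6 tested genes for secreted antagonists, 1 was called higher and 2 lower (5 called without control replicate 3). GREM1 fell from 387 ± 14.6 to 261 ± 4.14 CPM, and CHRDL1 rose from 280 ± 8.86 to 387 ± 8.43 CPM (SD, n = 3 each), both BMP antagonists. Among 16 other intracellular inhibitors of SMAD signalling, 6 were called higher and 3 lower. That count of 9 was 5, 4, 3, 2 and 4 without control replicates 1 and 2 and USAG-1 overexpression replicates 1, 2 and 3, and 4 without the filter on low counts. PMEPA1, a feedback inhibitor induced by TGF-β, fell by 0.83 on the log2 scale (adjusted p = 1.37e-04, quasi-likelihood test of edgeR, Benjamini-Hochberg adjusted), and NEDD4L, a ubiquitin ligase of SMAD2 and SMAD3, rose by 0.54.

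**Figure D4:**
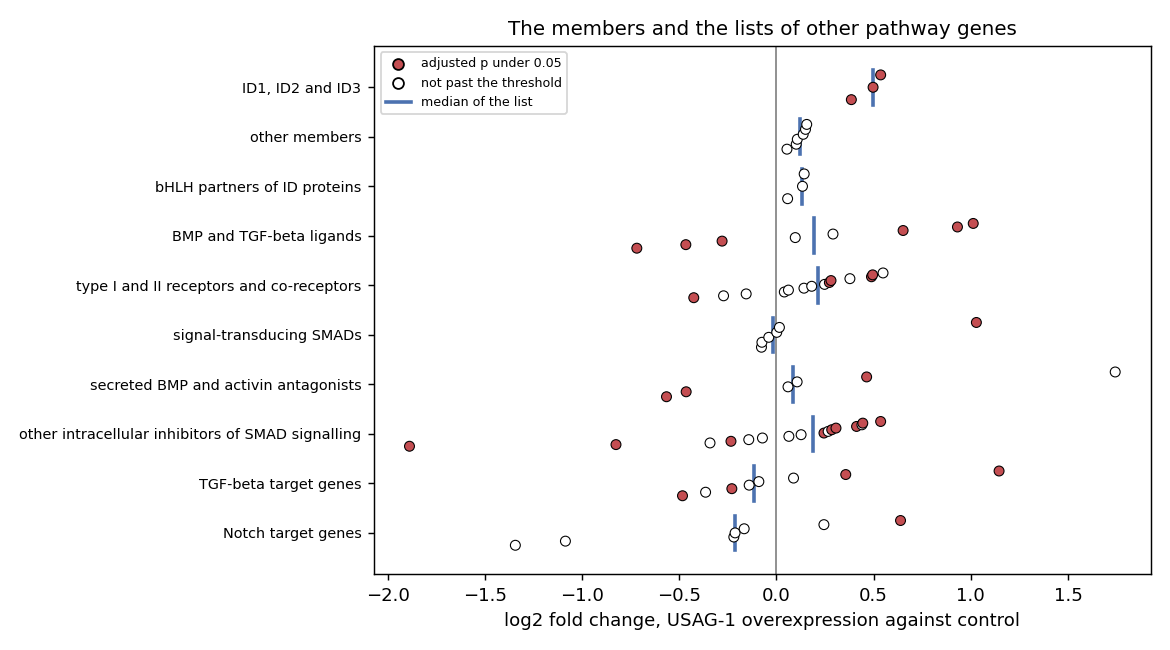
Log2 fold change of each tested gene of the family and of the other pathway lists, 1 point a gene and 1 row a list; filled points passed an adjusted p of 0.05 and the blue bar is the median of the list. ID1, ID2 and ID3 are filled and on the same side, whereas ligands, antagonists and other inhibitors hold filled points on both sides of 0.

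The TGF-β target list had 2 genes higher and 2 lower of 8, with CCN2 at a log2 fold change of 1.15 and FN1 at 0.36. Among 7 tested genes of the Notch pathway, which shares HEY1 with the BMP pathway, 1 was called, and leaving out USAG-1 overexpression replicate 2 gave 0 and leaving out control replicate 3 gave 2. HES1 rose by 0.64 on the log2 scale, and DTX1 had a log2 fold change of -1.09 that did not pass (adjusted p = 0.0653, quasi-likelihood test of edgeR, Benjamini-Hochberg adjusted). HES1 lost its call without USAG-1 overexpression replicate 2, and DTX1 gained one without control replicate 3 and with at least 10 counts in every library.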

How the data were processed

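RNA was sequenced from 6 cultures of HK-2 cells, 3 control and 3 with USAG-1 overexpression, and groups were taken from the sample titles. The authors deposited 1 table whose name refers to FPKM, but its columns are headed as counts and hold whole numbers with unequal totals, so they were taken as counts per gene without normalization. The submitters' processing notes name cutadapt 1.9, FastQC and hg38. The aligner, the counting tool and the handling of reads shared between genes are not given in the sources used here. The deposited counts summed to between 41236194 and 48699471 per library, and such depths limit counting error only.

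Genes were filtered with filterByExpr, scaled by TMM and tested by the quasi-likelihood test of edgeR 4.0.16 (R 4.3.3) without a replicate block. Adjustment was by the Benjamini-Hochberg method over 18188 genes, and a gene was called at an adjusted p under 0.05 and any fold change. The alternatives were DESeq2's size factors, library sizes alone, mitochondrial genes left out of library sizes, DESeq2 1.42.0, limma-voom (limma 3.58.1), no filter, 10 counts in every library, a replicate block, each library left out, and a minimum log2 fold change of 1. In data simulated for this comparison with 18188 genes, edgeR recovered 34.3% of genes changed by 0.5, 65.7% of those changed by 1 and 95.5% of those changed by 2 on the log2 scale, with 5.11% of calls false.

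The 10 genes and all lists were chosen with earlier results of these data known. Named were the 10 genes, SOSTDC1, the 2 genes with the smallest p in each pathway list (all genes of a list of 3), and the 3 genes nearest to ID1 and to SMAD7. No human sequence was used here.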

Additional observations from a re-analysis of the deposited data

How the results depend on the processing

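The number of genes called, 2885, ranged from 1137 (without USAG-1 overexpression replicate 2) to 5091 (without control replicate 3) with a library left out, and was 1917 and 1636 without control replicates 1 and 2 and 1306 and 1347 without USAG-1 overexpression replicates 1 and 3. With a log2 fold change of at least 1 required, 495 genes and 0 of the 10 members were called. Of the 10 members, 3 were called, and with a library left out 2 to 4. Their median log2 fold change of 0.15 ranged from 0.13 to 0.30 with a library left out. The SOSTDC1 value ranged from 5.86 to 6.05. Signs turned for HEY1 without control replicate 2 (range with a library left out -0.0586 to 0.30), for ATOH8 without control replicate 3 or USAG-1 overexpression replicate 3 (range -0.18 to 0.34), and for 3 ratios of counts, whose exact test of 3 libraries against 3 cannot go below p = 0.1: ID1 to ID2 without control replicate 2 (range -0.0103 to 0.134), SMAD7 to SMAD6 without control replicate 1 or USAG-1 overexpression replicate 2 (range -0.0274 to 0.0953), and SKIL to SKI without control replicate 3 (range -0.0745 to 0.105). The cause was not tested. No scaling moved the median of all genes by as much as 0.02. Same-numbered libraries did not deviate together (correlations across genes of 0.07, -0.05 and 0.04 for replicates 1, 2 and 3). A shared deviation was thus not seen, but these values cannot tell whether same-numbered cultures were handled together. With the replicate block, 2382 genes and 3 members were called, and ID1 changed by 0.54, ID2 by 0.50 and ID3 by 0.40 on the log2 scale. Depth limits ID4, which had too few counts for a test. HEY1 and ATOH8 had 33 to 117 counts per library, and the part of counting error in their spread was not tested.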
